A study of Mus musculus with 6 samples.

Results

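Genes that mark epithelial or mesenchymal cell state were followed in Hepa1-6 cells with midnolin knockdown. They were 10 of the 25078 genes in the deposited tables, taken by name: the cadherins Cdh1 and Cdh2, the adhesion protein Epcam, the simple-epithelium keratins Krt7, Krt8, Krt18 and Krt19, the intermediate filament gene Vim, and the transcription factors Snai2 and Zeb1. Hepa1-6 is an established hepatoma line from C57/L mice. The 6 libraries of ribosome-depleted RNA were 1 of untreated parental cells (wt), 2 of cells given a lentiviral scramble vector (scr 25-2 and scr 50-1) and 3 of cells given a lentiviral midnolin shRNA vector (knockdown 25-3, 50-2 and 50-5). Transduced cells were selected with puromycin and colonies grown from single cells were isolated by limiting dilution, so a group difference also holds differences between colonies, and p-values measure the spread between these libraries. The labels do not explain the 25 and 50, nor say whether the scr libraries came from separate colonies. By the RPKM values that the study lists, knockdown 50-2 is its clone sh1 and knockdown 25-3 its clone sh2, and knockdown 50-5 is not in that list.

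Epithelial cells hold to each other through cadherin and claudin junctions and carry a network of paired keratins, in which a type I keratin such as Krt18 or Krt19 assembles with a type II keratin such as Krt7 or Krt8. In the epithelial-mesenchymal transition (EMT), factors of the Snail, Zeb and Twist families repress epithelial genes, Cdh1 gives way to Cdh2, and Vim filaments accumulate. Hepatocytes carry Krt8 and Krt18, while Krt7 and Krt19 mark the bile duct epithelium.

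Between 25586301 and 33119710 reads were counted per library. Midn, the targeted gene, had an RPKM (reads scaled for exon length and library size) of 59.6 and 50.8 in the scr libraries against 20.3, 21.8 and 22.1 in knockdown 25-3, 50-2 and 50-5. The log2 fold change of knockdown over scr (log2FC) was -1.38, with a standard error (SE) of 0.133 and an adjusted p (FDR) of 0.00777 by edgeR. Of 12 hepatoma identity markers, 9 exceeded 1 RPKM in every library and Serpina1a was at 0 in all. Their summed RPKM ran from 2868 to 3625 in scr and from 263 to 1036 in knockdown. Alb, the plasma albumin gene, had 1877 and 2804 RPKM in scr against 336, 62.7 and 20.9 in knockdown (FDR 0.0712, edgeR). Other markers of the list lay the other way, with Apob, the apolipoprotein B gene, at 3.00 and 1.07 RPKM in scr against 52.2, 37.8 and 4.37 in knockdown (FDR 0.0822, edgeR). The 7 leukocyte markers summed to between 4.39 and 4.74 RPKM in scr and between 9.12 and 14.1 in knockdown, with Cd3e at 0 in every library. The 6 endothelial markers summed to at most 0.379 RPKM in scr and knockdown and to 2.90 in wt. The 7 fibroblast markers, of which 5 stayed under 1 RPKM in every library, summed to between 562 and 594 RPKM in scr and between 411 and 576 in knockdown, mostly as Dcn. The 8 cholangiocyte markers, which include Krt7, Krt19 and Epcam, summed to between 215 and 570 RPKM in scr and between 395 and 585 in knockdown. The part of these differences in the results was not tested.

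The promoters of 4 of the genes are shown because Krt7 fell while Krt8 and Krt18, which lie close to it on the chromosome, had higher means in knockdown, and because Vim stands for the mesenchymal side. Each is the 250 bases before the gene's start from RefSeq on GRCm38.p6, written 5' to 3' on the gene's strand, and 5 of the 10 genes (Krt7, Krt8, Krt18, Epcam and Vim) were matched in that table. Capitals mark the E-box CACCTG on either strand, the letters that Snail and Zeb factors are known to bind. The windows are chr15:101412153-101412402 for Krt7, chr15:102004343-102004592 for Krt8 on the minus strand, chr15:102027966-102028215 for Krt18 and chr2:13574061-13574310 for Vim.
Krt7: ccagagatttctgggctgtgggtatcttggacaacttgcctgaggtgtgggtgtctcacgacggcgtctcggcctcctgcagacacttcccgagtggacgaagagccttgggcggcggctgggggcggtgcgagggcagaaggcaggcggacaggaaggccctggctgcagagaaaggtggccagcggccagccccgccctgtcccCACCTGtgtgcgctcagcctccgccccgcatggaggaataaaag
Krt8: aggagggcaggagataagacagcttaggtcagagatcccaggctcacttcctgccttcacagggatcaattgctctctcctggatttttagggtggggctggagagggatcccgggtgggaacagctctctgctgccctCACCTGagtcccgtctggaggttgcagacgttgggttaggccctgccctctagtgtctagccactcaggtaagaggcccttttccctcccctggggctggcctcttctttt
Krt18: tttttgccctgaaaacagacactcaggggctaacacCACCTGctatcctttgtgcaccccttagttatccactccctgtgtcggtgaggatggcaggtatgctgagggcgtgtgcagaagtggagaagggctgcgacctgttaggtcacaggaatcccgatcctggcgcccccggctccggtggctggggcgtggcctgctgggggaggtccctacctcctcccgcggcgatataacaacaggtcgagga
Vim: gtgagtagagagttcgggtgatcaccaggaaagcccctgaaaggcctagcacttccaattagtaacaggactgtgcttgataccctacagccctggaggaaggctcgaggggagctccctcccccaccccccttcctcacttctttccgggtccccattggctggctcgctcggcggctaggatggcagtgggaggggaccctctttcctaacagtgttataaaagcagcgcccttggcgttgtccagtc

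CACCTG was found in the windows of Krt7, Krt8 and Krt18, with its first base 44, 111 and 214 bases before the start. The Epcam window holds it at 187 bases before the start and again on the opposite strand at 19. The Vim window has no CACCTG and carries the letters TATAAA 32 bases before the start. Of 32851 promoter windows of this length, 17.2% hold CACCTG and 12.4% hold TATAAA, so neither is rare. The GC box GGGCGG, found in 32.7% of windows, occurs 4 times in that of Krt7 and once in that of Epcam, counting both strands. These are matches of letters, and no binding was measured.

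Of the 10 genes, 7 had an RPKM over 1 in at least 1 scr or knockdown library and were tested among 11577 genes. Of these, 1 gene, Krt7, was called at an FDR under 0.05 with a fold change of at least 1.5, and it fell. Over all tested genes 10.6% were called, 5.4% as higher and 5.23% as lower in knockdown, so 1 of 7 is near the background. Among the 7, Krt18, Vim and Cdh2 had every knockdown library above both scr libraries and Krt7 and Zeb1 every one below, while Krt8 and Epcam overlapped. These 5 of 7 stand beside 50.2% of all tested genes whose 3 knockdown and 2 scr libraries did not overlap. The median log2FC over the 7 genes was 0.67, which is the value of Krt8 alone, and that over all tested genes was -0.00975. The genes Cdh1, Krt19 and Snai2 stayed at or under 1 RPKM in every scr and knockdown library and were not tested.

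**Figure D1:**
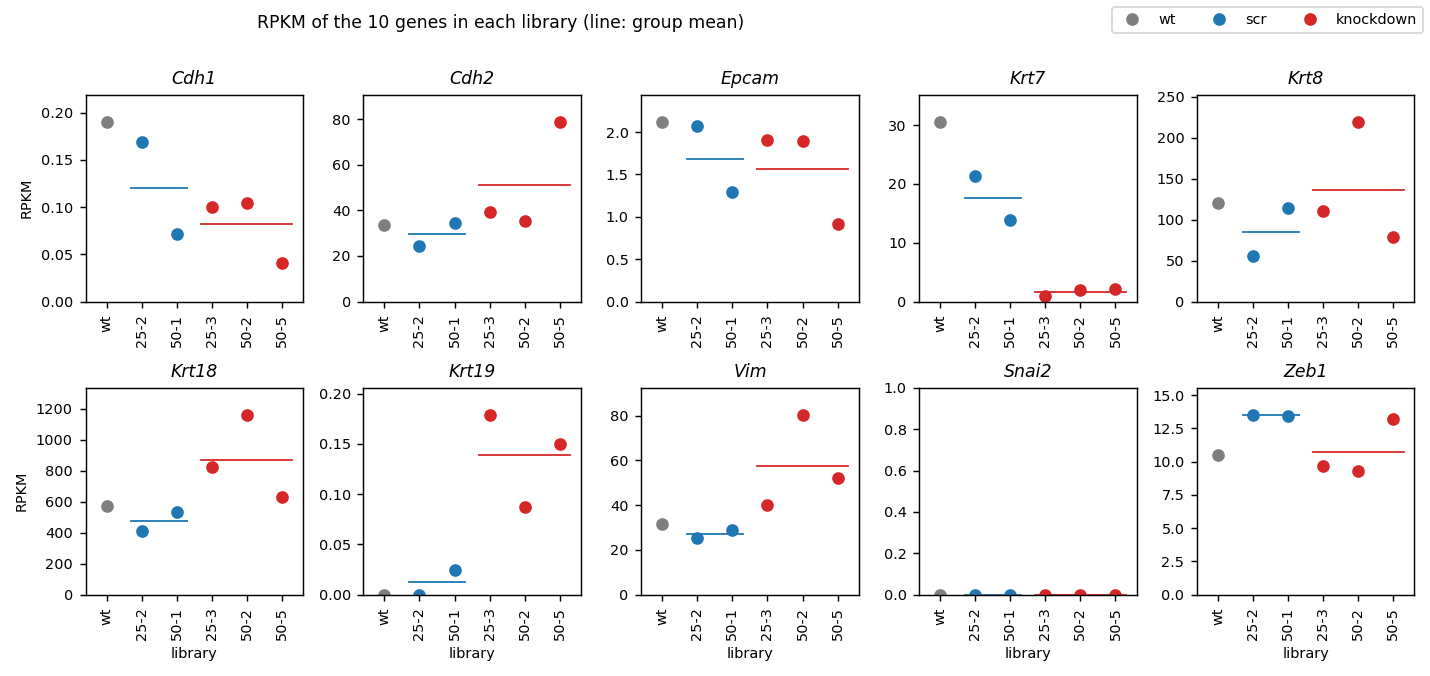
RPKM of each of the 10 genes (vertical axes, each from 0 on its own scale) in the wt, scr and knockdown libraries, with points for single libraries and lines for group means of 2 scr and 3 knockdown libraries. Krt7 lies between 0.858 and 2.15 in knockdown against 13.9 and 21.3 in scr, and Snai2 is at 0 throughout.

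Krt7, a type II keratin of duct and glandular epithelia, was the gene of the 10 that passed the main test. Its RPKM was 30.6 in wt, 21.3 and 13.9 in scr 25-2 and 50-1, against 0.858, 1.89 and 2.15 in knockdown 25-3, 50-2 and 50-5. All 3 knockdown libraries lay far below the other 3. Group means were 17.6 ± 5.26 RPKM (SD, n = 2) in scr against 1.63 ± 0.685 (SD, n = 3) in knockdown, a 10.8-fold difference (log2FC -3.44, SE 0.439, FDR 0.0133, edgeR). The reads behind these values were 994 and 626 in scr against 43, 97 and 113 in knockdown, well above the counting limit. In bulk RNA, fewer Krt7-positive cells and less Krt7 RNA per cell cannot be told apart. Without knockdown 50-2 the log2FC was -3.54 but the FDR rose to 0.0733, so the call was lost. With each of the other 4 libraries left out it was kept, and the log2FC ran from -3.71 to -3.08 over the 5 fits. Krt7 also stayed called in a fit with a term for 25 or 50 (log2FC -3.58, FDR 0.0329).

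Krt18, the type I keratin of hepatocytes, was among the most abundant transcripts of these cells. Its RPKM was 569 in wt, 408 and 535 in scr 25-2 and 50-1, against 821, 1160 and 632 in knockdown 25-3, 50-2 and 50-5. It ranked 62 and 45 among the 25078 genes in the scr libraries and 16, 10 and 26 in the knockdown libraries. Every knockdown library exceeded both scr libraries and wt. The log2FC of 0.87 (SE 0.285) did not pass the test (FDR 0.103, edgeR), whereas DESeq2 gave an FDR of 0.0174.

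Krt8, its type II partner, was more variable within groups. Its RPKM was 120 in wt, 55.6 and 114 in scr 25-2 and 50-1, against 111, 220 and 79.2 in knockdown 25-3, 50-2 and 50-5. The knockdown libraries 25-3 and 50-5 lay between the scr values and only 50-2 above them. The log2FC was 0.67 with an SE of 0.509 (FDR 0.410, edgeR), and it moved between 0.17 and 1.28 as single libraries were left out, the lowest value being that without knockdown 50-2 and the highest that without scr 50-1. A processed pseudogene of Krt8 is annotated, so reads of the pair may be split and the Krt8 counts are uncertain. The RPKM ratio of Krt18 to Krt8 was 4.74 in wt, 7.34 and 4.70 in scr against 7.42, 5.28 and 7.98 in knockdown 25-3, 50-2 and 50-5, so the groups overlapped. The ratio of Krt7 to Krt8 was 0.255 in wt, 0.383 and 0.122 in scr against 0.00776, 0.00862 and 0.0272 in knockdown. In this ratio the groups were well apart.

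Krt19, the type I keratin that marks bile duct cells beside Krt7, was close to absent. It had 0 reads in wt, 0 and 1 in scr against 8, 4 and 7 in knockdown 25-3, 50-2 and 50-5. A count of 0 allows up to 3 reads, which was 0.0813 RPKM in wt and 0.0720 in scr 25-2. The knockdown values of 0.179, 0.0875 and 0.150 RPKM lay above that limit, that of 50-2 only just. With no filter on RPKM the log2FC of Krt19 was 3.22 with an SE of 1.09 (FDR 0.131, edgeR). Intervals and limits of this kind cover counting error only.

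Over the whole keratin family, 55 Krt genes were listed, 8 exceeded 1 RPKM in any library and 14 had no read. Their summed RPKM was 871 in wt, 634 and 853 in scr against 1039, 1512 and 799 in knockdown 25-3, 50-2 and 50-5. The sum overlapped between the groups, whereas the shares of Krt18, Krt7 and Krt20 in it did not. Krt18 made up 64.4% and 62.7% of the sum in scr against 79.0%, 76.7% and 79.0% in knockdown. Krt7 went from 3.36% and 1.62% to 0.0826%, 0.125% and 0.269%. Krt20, a type I keratin of intestinal and urothelial surface cells, made up 23.2% and 21.8% in scr against 9.82%, 8.19% and 10.0% in knockdown. In RPKM, Krt20 was at 147 in wt, 147 and 186 in scr against 102, 124 and 80.2 in knockdown, with a log2FC of -0.72 (SE 0.213, FDR 0.0828, edgeR). The groups did not overlap for Krt20, but the main test was not passed. It was passed with DESeq2 (FDR 0.0181). Of the 12 other keratins listed for comparison, 3 were tested and 0 were called by edgeR, with 1 called without scr 50-1 (Krt5, log2FC 2.77, FDR 0.0413) and 1 by DESeq2 (Krt20). Without scr 25-2 the log2FC of Krt5 was -0.10.

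**Figure D2:**
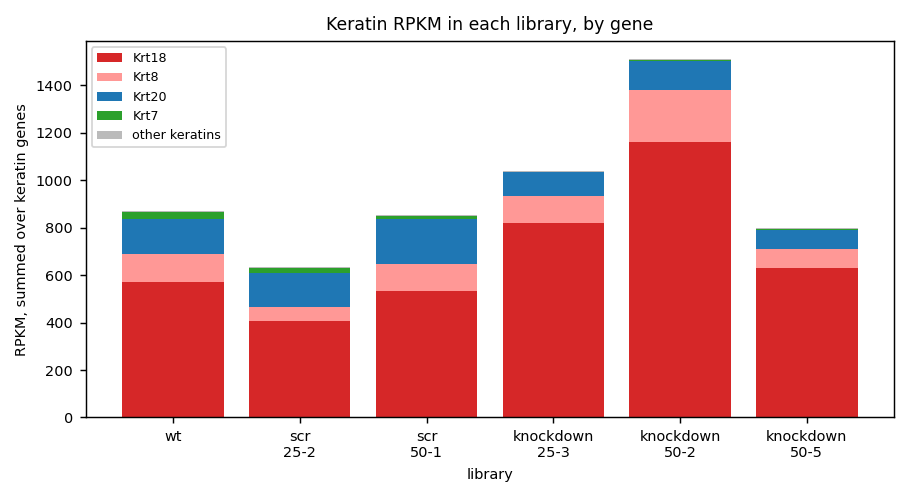
RPKM summed over the keratin genes (vertical axis, from 0) in each of the 6 libraries, stacked by gene. Krt18 takes 76.7% to 79.0% of the bar in knockdown against 62.7% and 64.4% in scr, and the Krt7 part of 1.62% and 3.36% in scr is at most 0.269% in knockdown.

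Krt7, Krt8 and Krt18 lie together on chromosome 15 of mm10, at chr15:101412403-101427806, chr15:101996711-102004342 and chr15:102028216-102032026. Krt7 starts 591.9 kb from Krt8, and Krt8 and Krt18 start 23.9 kb apart on opposite strands. Their surroundings were looked at after their values had been seen. Within 1000 kb of the Krt7 start, 31 other genes were tested, of which 30 had a log2FC above 0, 7 were called as higher and 0 as lower by edgeR. Their median log2FC was 0.83, and the lowest was -0.14, for Tns2, against -3.44 for Krt7. In each library, the median log2 ratio of these 31 genes to the scr mean was 0.06 in wt, -0.42 and 0.33 in scr against 0.69, 0.93 and 0.72 in knockdown, on log2(RPKM + 0.1). The Krt7 change thus went against the direction of its neighbours. Leaving out scr 25-2 gave a median of 0.50 and leaving out scr 50-1 one of 1.27, and it stayed above 0 in each fit. The 7 calls became 0 without any of the 3 knockdown libraries, 4 without scr 25-2, 12 without scr 50-1, 1 in a fit with a term for 25 or 50, 3 with limma on log2(RPKM + 0.1), 13 with wt among the controls and 15 with DESeq2, and no gene but Krt7 was called as lower in any of these fits.

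The windows around Krt8 and Krt18 overlap that of Krt7 and held mostly the same genes. Within 5 Mb of each start, 102 other genes had a median log2FC of 0.59, 94 of them above 0, with 21 called as higher and 1 as lower, which was Krt7. Krt8 lay 0.09 and Krt18 0.28 above that median on the log2 scale. Along chromosome 15, the median was 0.42 between 95 and 100 Mb and 0.79 in the next 5 Mb, and between -0.19 and 0.17 in the other 5 Mb bins with at least 20 tested genes. Over the chromosome as a whole it was 0.10. The part of this regional difference in the Krt8 and Krt18 values was not tested.

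**Figure D3:**
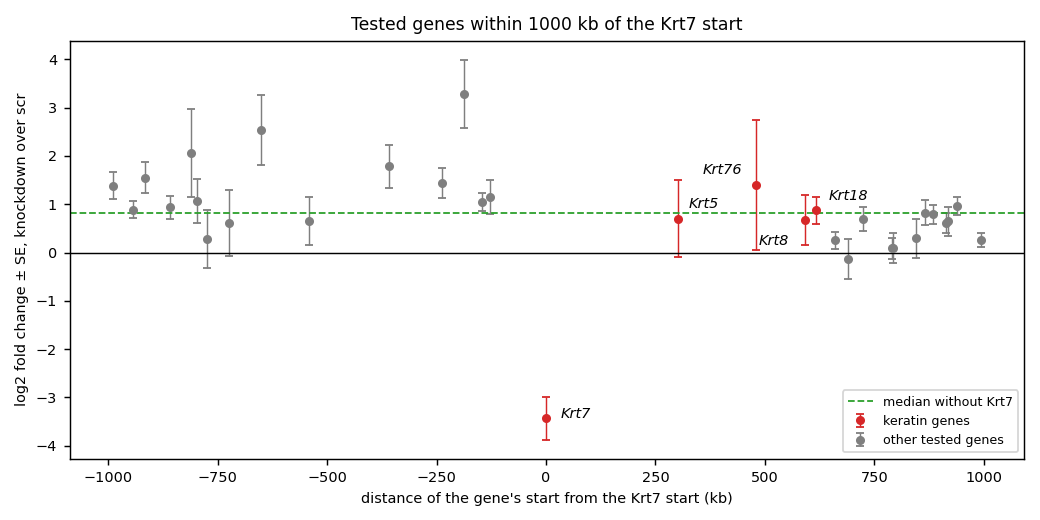
Log2 fold change of knockdown over scr (vertical axis, bars of 1 standard error) for the tested genes within 1000 kb of the Krt7 start (horizontal axis, kb from that start), keratins in red and others in grey. The 31 other genes have a median of 0.83, drawn as a dashed line, and Krt7 lies apart at -3.44.

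Cdh1, the E-cadherin of epithelial junctions (chr8:106603350-106670247), was barely expressed before any knockdown. It had 22 reads in wt, 22 and 9 in scr against 14, 15 and 6 in knockdown 25-3, 50-2 and 50-5, or between 0.0409 and 0.190 RPKM in all 6 libraries. The groups overlapped, and with no filter on RPKM the log2FC was -0.56 with an SE of 0.634 (FDR 0.607, edgeR). A difference in Cdh1 was not detectable with these counts and this spread.

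Epcam, a surface glycoprotein of epithelial and progenitor cells (chr17:87635979-87651127), was low as well. Its RPKM was 2.12 in wt, 2.08 and 1.29 in scr against 1.90, 1.89 and 0.909 in knockdown 25-3, 50-2 and 50-5. Both groups spanned nearly the same range. The log2FC of -0.12 (SE 0.438, FDR 0.879, edgeR) changed sign to 0.28 without scr 25-2 and to 0.15 without knockdown 50-5, so no direction can be given.

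Vim, the intermediate filament protein of mesenchymal cells (chr2:13574311-13582826), had its values in order of group. Its RPKM was 31.7 in wt, 25.4 and 28.9 in scr 25-2 and 50-1, against 40.0, 80.3 and 51.9 in knockdown 25-3, 50-2 and 50-5. Every knockdown library exceeded the scr libraries and wt, and 50-2 exceeded the others. Means were 27.2 ± 2.48 RPKM (SD, n = 2) in scr against 57.4 ± 20.7 (SD, n = 3) in knockdown. The log2FC of 1.07 (SE 0.309) did not pass the main test (FDR 0.0796, edgeR). It passed with DESeq2 (FDR 0.00729) and with wt added to the controls in edgeR (FDR 0.0412). The 22 other tested genes within 5 Mb of Vim had a median log2FC of 0.11, so Vim lay 0.95 above its neighbours.

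Cdh2, the N-cadherin that hepatocytes also carry (chr18:16588877-16809246), was the main one of the pair of cadherins in every library. Its RPKM was 33.5 in wt, 24.2 and 34.7 in scr 25-2 and 50-1, against 39.4, 35.6 and 79.0 in knockdown 25-3, 50-2 and 50-5. The knockdown libraries 25-3 and 50-2 lay just above scr 50-1, and 50-5 stood apart. The log2FC was 0.79 (SE 0.404, FDR 0.240, edgeR) but 0.33 without 50-5. Per length, Cdh2 exceeded Cdh1 176-fold in wt, 143- and 487-fold in scr against 394-, 340- and 1930-fold in knockdown, with Cdh1 counts of 6 to 22 reads behind these ratios.

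Mesenchymal and epithelial filament genes were also set against each other. The RPKM ratio of Vim to the sum of Krt8 and Krt18 was 0.0460 in wt, 0.0548 and 0.0446 in scr against 0.0430, 0.0582 and 0.0730 in knockdown 25-3, 50-2 and 50-5. Knockdown 25-3 lay below and 50-5 above all other libraries, so the groups overlapped.

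Zeb1, a zinc finger repressor of Cdh1 and of the miR-200 genes (chr18:5591860-5775468), was expressed at a moderate level. Its RPKM was 10.5 in wt, 13.5 and 13.4 in scr 25-2 and 50-1, against 9.69, 9.31 and 13.2 in knockdown 25-3, 50-2 and 50-5. The knockdown libraries were below both scr libraries, 50-5 only just, and wt lay inside the knockdown range. The log2FC was -0.34 (SE 0.191, FDR 0.280, edgeR), with -0.52 without knockdown 50-5 and -0.24 without 50-2. The 21 other tested genes within 5 Mb had a median of -0.35, close to the value of Zeb1 itself. For the 6 within 1 Mb the median was -0.58. A gene on the opposite strand, Gm10125, overlaps it but had at most 4 reads.

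Snai2, the Snail-family factor Slug (chr16:14705852-14709395), had 0 reads in all 6 libraries. The 3 reads that such a count allows correspond to between 0.0446 and 0.0566 RPKM per library. No level or difference of Snai2 could be given.

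**Figure D4:**
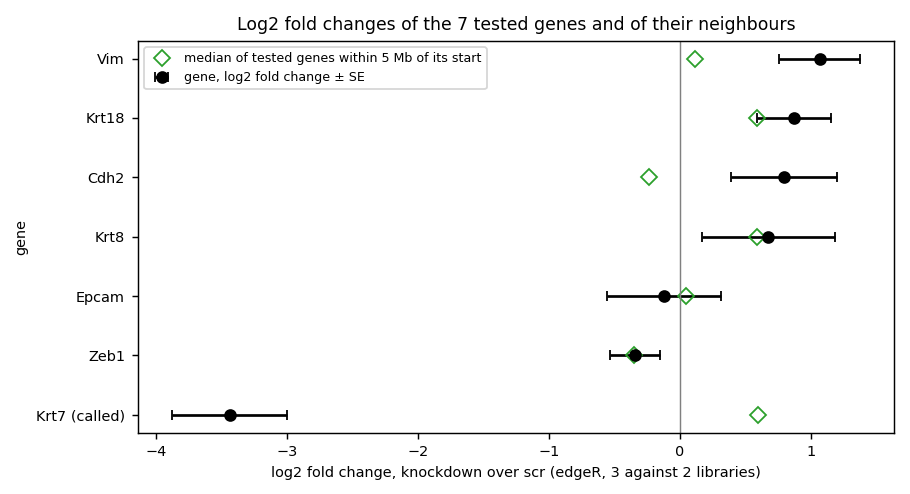
Log2 fold change of knockdown over scr (horizontal axis, bars of 1 standard error, edgeR on 3 against 2 libraries) for the 7 tested genes, with open diamonds for the median of the tested genes within 5 Mb of each. At this width Vim and Cdh2 lie above their neighbours and Krt7 far below, while Cdh2 lies below the median of 1.47 of its 2 tested neighbours within 1 Mb, and Zeb1, Krt8, Krt18 and Epcam closer to theirs.

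Wider lists of the same program gave the setting of the 10 genes. Of 25 epithelial junction genes, 20 were tested, 2 were called as higher and 4 as lower, with a median log2FC of -0.34. This was 30.0% of the tested genes of the list, beside 10.6% of all tested genes. Cldn3, a sealing claudin, rose from 1.88 and 0.611 RPKM in scr to 22.9, 24.6 and 14.8 in knockdown (log2FC 4.03, SE 0.564, FDR 0.0156, edgeR). The log2FC of Cldn3 ran from 3.45 to 5.08 as single libraries were left out. Its neighbour on chromosome 5, Cldn4, fell from 118 and 127 to 26.3, 31.4 and 17.3 RPKM (log2FC -2.30, SE 0.253, FDR 0.00938). These related claudins thus moved in opposite directions. The desmosomal cadherin Dsc2 fell from 19.7 and 31.6 to 6.59, 6.04 and 5.15 RPKM (log2FC -2.12, FDR 0.00898), and Jup, which links desmosomes and adherens junctions, and Dsg2 were also called as lower, at -1.28 and -0.62 on the log2 scale. Ctnnb1, the beta-catenin that binds cadherin tails, rose in knockdown to 322, 303 and 234 RPKM, with at most 162 in scr (log2FC 1.09, FDR 0.0496). The count of 6 calls became 1 without knockdown 25-3, 1 without 50-2, 3 without 50-5, 11 without scr 25-2 and 10 with DESeq2. Cldn3 lost its call without knockdown 25-3 or 50-2, Cldn4 without 25-3, Dsc2 without 50-2, Jup without any of the 3 knockdown libraries, and Ctnnb1 and Dsg2 without any of these or scr 50-1. Ctnnb1 also lost it with upper-quartile size factors (FDR 0.0549) and limma on log2(RPKM + 0.1) (FDR 0.0643). Dsg2 was at the threshold and also lost it with RLE size factors (FDR 0.0522), filterByExpr (FDR 0.0523), no RPKM filter (FDR 0.0599), both limma fits (FDR 0.0667 and 0.0829) and a term for 25 or 50 (FDR 0.0765).

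Of 20 epithelial regulators and surface proteins, 9 were tested, 1 was called as higher and 1 as lower, 22.2% of those tested beside 10.6% of all tested genes, with a median of -0.36. Grhl2, a grainyhead factor that maintains epithelial junction genes, rose from 0.144 and 0.199 RPKM in scr to 1.06, 1.10 and 0.819 in knockdown (log2FC 2.52, SE 0.338, FDR 0.0146, edgeR). It was at 0.295 RPKM in wt and low in every library. Only knockdown 25-3 and 50-2 exceeded 1 RPKM, so Grhl2 was tested only through the group where it is high. Muc1, an apical mucin, fell from 0.742 and 1.33 to 0.0847, 0.0690 and 0.0943 RPKM (log2FC -3.63, SE 0.434, FDR 0.0113), but wt with 0.103 RPKM was close to the knockdown libraries. Both lost their call without knockdown 25-3 or 50-2, where the list had 0 called genes, and the list had 4 without scr 25-2, 4 with no RPKM filter or filterByExpr and 5 with DESeq2. Muc1 also lost it with wt among the controls (FDR 0.0521, edgeR) and was not tested without scr 50-1, the 1 compared library in which it exceeded 1 RPKM.

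Of 16 other EMT transcription factors, 11 were tested, 1 was called as higher and 1 as lower, 18.2% of those tested beside 10.6% of all tested genes, with a median of -0.04. Sox4, a factor downstream of TGF-beta, rose from 45.6 and 41.5 RPKM in scr to 80.9, 109 and 80.4 in knockdown (log2FC 1.04, SE 0.184, FDR 0.0275, edgeR). Tcf4, the E-protein E2-2, fell from 99.7 and 114 to 35.8, 32.9 and 45.5 RPKM (log2FC -1.50, SE 0.182, FDR 0.0117). Snai1 had no stable direction, with a log2FC of 0.18 (FDR 0.785) that was -0.30 without scr 25-2 and 0.92 without scr 50-1. Zeb2 had one of 1.02 (FDR 0.0984) with no overlap of the groups. Zeb2 passed with DESeq2 (FDR 0.0185) and, in edgeR, with wt among the controls (FDR 0.0480) or without scr 25-2 (FDR 0.0384). The list had 0 called genes without knockdown 25-3 or 50-2, 1 without 50-5 or scr 50-1, 1 with a term for 25 or 50, and 4 without scr 25-2. Tcf4 lost its call without knockdown 25-3 or 50-2, and Sox4 without any knockdown library or scr 50-1. Sox4 also lost it in a fit with a term for 25 or 50 (FDR 0.0574, edgeR).

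Of 22 other mesenchymal genes, 9 were tested, 4 were called as higher and 1 as lower, 55.6% of those tested beside 10.6% of all tested genes, with a median log2FC of 0.97. Axl, a receptor tyrosine kinase, rose from 27.5 and 29.1 RPKM in scr to 122, 111 and 119 in knockdown (log2FC 2.04, SE 0.130, FDR 0.00396, edgeR), and it stayed called with any 1 library left out. Cd44, the hyaluronan receptor, rose from 81.5 and 81.4 to 163, 227 and 173 RPKM (log2FC 1.19, FDR 0.0190). Pdgfra rose from 0.308 and 0.167 to 2.70, 1.90 and 1.58 RPKM (log2FC 3.10, FDR 0.0140), but wt had 1.93 RPKM, within the knockdown range. Of the compared libraries only those of knockdown exceeded 1 RPKM, so Pdgfra was tested only through the group where it is high. S100a4, a calcium-binding protein of migrating cells, fell from 75.3 and 56.8 to 18.6, 21.8 and 21.4 RPKM (log2FC -1.69, FDR 0.0104). Fn1, the fibronectin gene and the most abundant of the list, had 754 and 738 RPKM in scr against 768, 1148 and 1280 in knockdown (log2FC 0.50, FDR 0.222). With filterByExpr the list had 5 called of 13 tested genes, and with no RPKM filter 5 of 21. The 5 calls of the main test became 2 without knockdown 25-3, 1 without 50-2 and 3 without 50-5. Pdgfra and S100a4 lost theirs without 25-3 or 50-2, and Cd44 without any knockdown library. Pdgfra also lost it with wt among the controls (FDR 0.295, edgeR).

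Of 17 genes of the TGF-beta pathway, a main inducer of EMT, 15 were tested, 3 were called as higher and 1 as lower, 26.7% of those tested beside 10.6% of all tested genes, with a median of 0.10. Among ligands, Tgfb1 rose from 14.7 and 15.9 RPKM in scr to 32.4, 34.7 and 38.0 in knockdown (log2FC 1.18, SE 0.139, FDR 0.0108, edgeR). Among receptors, Tgfbr2 rose from 13.5 and 17.0 to 23.3, 27.1 and 31.4 RPKM (log2FC 0.83, FDR 0.0496). Bambi, a pseudoreceptor that blocks signalling, fell from 2.06 and 5.81 RPKM to between 0.368 and 0.974 (log2FC -2.61, FDR 0.0444). The log2FC of Bambi ran from -3.16 to -1.68 as single libraries were left out. Smurf1, a ubiquitin ligase that removes receptors and Smads, rose from 10.4 and 12.1 to 17.6, 22.0 and 22.3 RPKM (log2FC 0.87, FDR 0.0327). The 4 calls became 1 without knockdown 25-3, 0 without 50-2, 1 without 50-5, and 2 and 1 with limma on log2(RPKM + 1) and log2(RPKM + 0.1). Tgfb1 lost its call without 50-2 alone, Bambi without any knockdown library or scr 50-1, and Smurf1 and Tgfbr2 without any knockdown library or scr 25-2. Tgfbr2 also lost it with no RPKM filter (FDR 0.0501) and in both limma fits (FDR 0.0515 and 0.0675). Bambi lost it in both limma fits as well (FDR 0.0578 and 0.0665) and with a term for 25 or 50 (FDR 0.0815), and Smurf1 with limma on log2(RPKM + 0.1) (FDR 0.0508).

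The 5 loci of the miR-200 family, whose mature RNAs target Zeb1 and Zeb2, had 0 reads in every library. The tables count reads on the annotated hairpins, and mature miRNAs were not profiled.

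**Figure D5:**
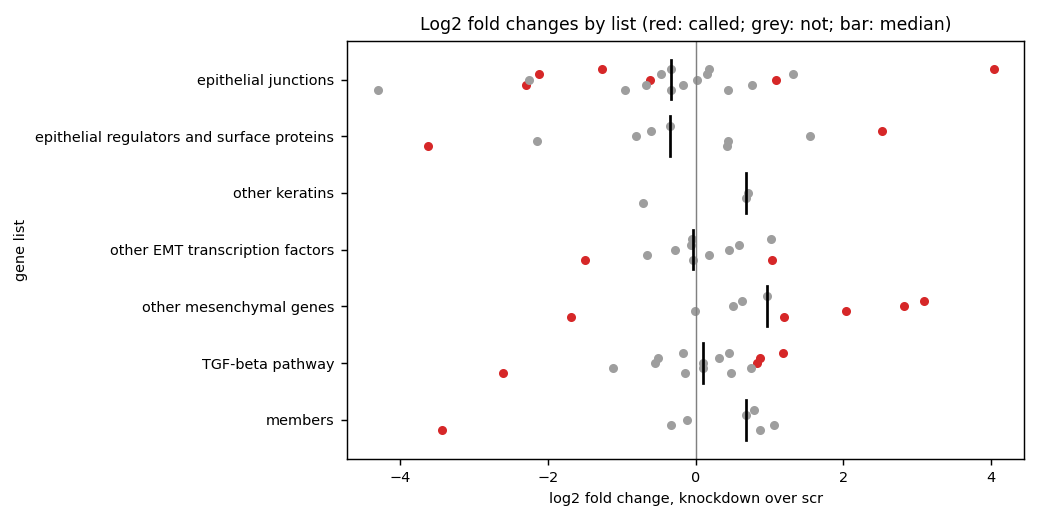
Log2 fold change of knockdown over scr (horizontal axis) for each tested gene of the 10 genes (bottom) and of 6 wider lists, with red points for called genes, grey points for others and a black bar at the list median. Called genes stand on both sides of 0 in the junction, regulator, factor, mesenchymal and TGF-beta lists, and the medians run from -0.36 to 0.97.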

How the data were processed

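RNA-seq of 6 Hepa1-6 libraries (1 wt, 2 scr, 3 knockdown, grouped by the treatment in the labels) was analysed. The authors aligned reads to mm10 with TopHat2, counted them per RefSeq gene with HTSeq (0.6.1p1 in the submitters' processing notes) and deposited raw counts without normalization. They also deposited RPKM values scaled by TMM library sizes. Whether strand was used in counting is not given in the sources used here. Columns were matched to samples by name, and 0 were left unmatched.

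Counts were tested with edgeR 4.0.16 in R 4.3.3 (quasi-likelihood test, TMM, Benjamini-Hochberg FDR), knockdown against scr, over genes with RPKM over 1 in at least 1 compared library. The study's thresholds were used, an FDR under 0.05 and a fold change of at least 1.5. Standard errors were derived from the F statistic, as the size of the log2 fold change over the root of F. The common biological coefficient of variation was 0.272. The test was checked on simulated counts. Rn45s took 10.1% to 13.1% of counts.

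The 10 genes and the lists were chosen with earlier results of these data known. From each list, up to 2 called genes per direction with the largest changes and no overlap of the groups were named, apart from 1 gene that is not reported here. Jup, Dsg2, Axl, Cd44, Fn1, Snai1, Zeb2, Tgfbr2, Krt5, Krt20, Apob and Tns2 were added after their values were seen, as were the windows around Krt7 and the other genes. Ctgf was matched as Ccn2.

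Alternatives were DESeq2 1.42.0, RLE and upper-quartile size factors, no RPKM filter, filterByExpr, limma 3.58.1 on log2(RPKM + 1) and log2(RPKM + 0.1), wt among the controls, the 25 or 50 of the labels as a term, and each library left out.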

Additional observations from a re-analysis of the deposited data

How the results depend on the processing

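Knockdown against scr gave 1230 called genes, 2322 with DESeq2 and 807 with the 25 or 50 of the labels as a term. With 1 library left out, so with fewer libraries by construction, the count ran from 131 (without knockdown 50-2) to 2273 (without scr 25-2). Of the 10 genes 1 was called, 3 with DESeq2 (Krt7, Krt18 and Vim) and 2 with wt among the controls (Krt7 and Vim), and between 0 and 1 with a library left out. Why DESeq2 called more was not tested. The log2 fold change of Epcam ran from -0.42 to 0.28 over the fits with a library left out and was 0.28 without scr 25-2 and 0.15 without knockdown 50-5. Krt7, Krt8, Krt18, Vim, Cdh2 and Zeb1 kept their direction in all 14 alternatives. With no RPKM filter, 58 genes around Krt7 were tested, with a median of 1.00. The median over all tested genes stayed between -0.0226 and 0.0245. The libraries were blocked only by the 25 or 50 of their labels, since no full replicate label is shared by scr and knockdown. Cdh1, Krt19 and Snai2 had at most 22 reads per library, which limits what can be said of them.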

Other observations

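Medians of the log2 fold change differed between whole chromosomes, which was looked at after the values around Krt7 and Zeb1 had been seen. They were -0.47 on chromosome 16, -0.44 on X, -0.42 on 12, -0.38 on 18 and -0.30 on 8, where between 14.8% and 23.3% of the tested genes had a value above 0. Chromosome 6 had a median of 0.35 with 73.5% of genes above 0, and the other chromosomes had medians between -0.08 and 0.20. Of the 10 genes, Snai2 lies on chromosome 16, Cdh1 on 8 and both Cdh2 and Zeb1 on 18. Dsc2, Tcf4 and Bambi of the wider lists, all called as lower, also lie on chromosome 18. The part of the chromosome-wide difference in their values was not tested. Cdh2 was 1.03 above the median of -0.23 of the 22 tested genes within 5 Mb of it, but 0.67 below the median of 1.47 of the 2 tested within 1 Mb.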
